A study of Mus musculus with 32 samples.

Results

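The 3 classical dynamins (*Dnm1*, *Dnm2* and *Dnm3*), the 2 amphiphysins (*Bin1*, which encodes amphiphysin 2, and *Amph*, which encodes amphiphysin 1) and the kinase gene *Speg* were followed in muscle that lacks *Mtm1*. The 6 genes were taken by name from the 54838 genes of the expression table. *DNM2*, *BIN1* and *SPEG* are, with *MTM1*, genes of human centronuclear myopathy (CNM), and the other genes are paralogues of *Dnm2* and *Bin1*. RNA from tibialis anterior (TA) muscle gave 32 libraries, with n=4 wild-type (WT) littermates and n=4 *Mtm1* knockout (*Mtm1* KO) mice at each of postnatal day (P)1, P14, P21 and P35. All mice were on the C57BL6/J background. The *Mtm1* KO allele carries a constitutive deletion of exon 4 in every cell type, so the muscle fibers and the other cells of the tissue lack the gene alike. Labels name the tissue only as skeletal muscle, and the study's methods name TA. WT mice are the controls at each age, and no other allele or treatment was used in either genotype.

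Dynamins are large GTPases that assemble as helices around the neck of a budding membrane and cut it. *Dnm2* is expressed in most tissues, *Dnm1* is the neuronal form and *Dnm3* is found mainly in brain and testis. Amphiphysins hold a BAR domain that senses and bends membrane and an SH3 domain that binds dynamin, and *Bin1* of skeletal muscle is known for building the T-tubules, the surface invaginations that carry excitation into the fiber. *Speg* encodes a large kinase of the myosin light chain kinase family at the triad, where T-tubules meet the sarcoplasmic reticulum, and the product of *Mtm1* binds SPEG and removes phosphate from phosphoinositides.

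Counts per library summed to between 49321035 and 85631408. Expression is given as CPM, each library's counts scaled to a common total with the TMM factors of edgeR over the 32 libraries, and values are mean ± SD with n=4. The targeted gene *Mtm1* fell in *Mtm1* KO muscle from 20.6 ± 1.02 to 4.07 ± 0.323 CPM at P14, from 20.7 ± 1.33 to 3.14 ± 0.481 CPM at P21 and from 22.1 ± 1.90 to 3.69 ± 0.266 CPM at P35. At P1 its level was 5.51 ± 0.344 CPM in WT and 2.77 ± 0.764 CPM in *Mtm1* KO, a log2 fold change of -0.98 that did not pass the threshold (SE 0.172, adjusted *P*=0.0668, edgeR) and that was -1.19 and passed without KO replicate 4 (SE 0.0864, adjusted *P*=0.00340, edgeR). The KO library of replicate 4 at P1 stood apart, with 3.91 CPM of *Mtm1* against 2.32 to 2.45 CPM in the other KO libraries and with 33.2 CPM summed over 8 neuron markers, and the P1 comparisons below are given with and without it where it moves them. Muscle markers were high at every age, with *Ckm* (muscle creatine kinase) at a mean of 4614 CPM in WT at P1 and 18074 CPM at P14. Keratinocyte markers summed to between 1513 and 5790 CPM in the P1 libraries and to at most 6.25 CPM later, and the part of such cells in the P1 values was not tested. These are whole-muscle samples, in which fewer cells of a type and less RNA per cell cannot be told apart, and gene counts do not separate splice forms such as the muscle-specific forms of *Bin1* and *Dnm2*.

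On the GRCm38 build, *Dnm1* (ENSMUSG00000026825) lies on chromosome 2 from 32308471 to 32353338 on the minus strand and *Dnm2* (ENSMUSG00000033335) on chromosome 9 from 21424908 to 21507759 on the plus strand. *Dnm3* (ENSMUSG00000040265) spans 161982453 to 162478034 of chromosome 1 on the minus strand, and *Speg* (ENSMUSG00000026207) lies on the plus strand of the same chromosome from 75375297 to 75432320. *Amph* (ENSMUSG00000021314) lies on chromosome 13 from 18948205 to 19150921 on the plus strand. Of all runs of 50 bases in their annotated transcripts, 0 were shared with another gene for every member except *Amph*, where 43 runs (0.95%) were.

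Each of the dynamin genes holds, in an intron and on its opposite strand, a microRNA gene of the miR-199 family. *Mir199b* lies inside *Dnm1*, *Mir199a-1* inside *Dnm2*, and *Mir199a-2* and *Mir214* inside *Dnm3*, where both are also within the span of the antisense transcript *Dnm3os*. The mature sequences are shown to tell which products the loci share and which they do not. They come from RefSeq (GRCm38.p6), are written 5′ to 3′, and carry the seed, bases 2 to 8, in capitals. The sequences read held no 5p product of *Mir199b*, so the *Dnm1* locus is not part of the 5p comparison.
mmu-miR-199a-5p: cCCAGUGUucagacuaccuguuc
mmu-miR-199a-3p: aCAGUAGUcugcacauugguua
mmu-miR-199b-3p: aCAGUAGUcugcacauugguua
mmu-miR-214-5p: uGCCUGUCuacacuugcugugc
mmu-miR-214-3p: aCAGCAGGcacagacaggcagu
The 3p products of the *Dnm1*, *Dnm2* and *Dnm3* loci are the same sequence and share the seed CAGUAGU, and both miR-199a genes, in *Dnm2* and *Dnm3*, give the same 5p product, while the miR-214 products come from the *Dnm3* locus alone among the 3. Counts of the microRNA genes were 0 in every library, which were made from polyadenylated RNA, so the mature microRNAs were not measured.

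Promoter windows of RefSeq (GRCm38.p6) were read for the members other than *Bin1* and searched over the 250 bases before the start. The windows of *Dnm2* and *Speg* are shown because these genes differed in WT from P1 to P14 with TMM scaling, where *Speg* was called higher and *Dnm2* was not called. For *Dnm2* (chr9:21424658-21424907, plus strand), capitals mark CCAAT or its reverse complement ATTGG.
Dnm2 upstream: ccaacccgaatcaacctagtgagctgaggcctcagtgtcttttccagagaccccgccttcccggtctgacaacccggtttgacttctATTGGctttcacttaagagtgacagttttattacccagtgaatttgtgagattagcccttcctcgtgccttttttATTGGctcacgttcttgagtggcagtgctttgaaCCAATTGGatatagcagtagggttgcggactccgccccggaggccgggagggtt
This window held 4 CCAAT matches, starting 163, 88, 54 and 51 bases before the start, of which the last 2 overlap. At least 1 match was present in 33.8% and at least 3 in 2.79% of 32851 mouse promoter windows of the same length. For the first of 4 annotated *Speg* starts (chr1:75375047-75375296, plus strand), capitals mark a match to the motif of the muscle transcription factor MEF2, searched on both strands.
Speg upstream: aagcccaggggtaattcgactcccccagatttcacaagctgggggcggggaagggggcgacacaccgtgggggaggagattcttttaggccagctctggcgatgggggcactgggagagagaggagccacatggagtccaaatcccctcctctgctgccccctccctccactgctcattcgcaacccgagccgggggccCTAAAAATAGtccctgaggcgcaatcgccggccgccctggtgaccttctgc
The match starts 51 bases before the start, and 2.92% of the windows held one. No MEF2 match was found in the windows of *Dnm1*, *Dnm2*, *Dnm3* and *Amph* or before the other *Speg* starts. The motifs CANNTG (N is any base) and GGGCGG were searched too. CANNTG was found for *Dnm2*, *Dnm3*, *Amph* and *Speg* and in 66.2% of the windows. GGGCGG was found for *Dnm2* and *Speg* and in 32.7%. A CCAAT match was also found for *Dnm3*. All motif matches are descriptions of the letters, and binding was not measured.

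Levels between genes were compared as CPM per kb of exon. *Bin1* had the highest level in all 8 groups, with 132.8 ± 19.9 CPM per kb in WT at P35. *Speg* followed with 24.8 ± 3.39 and *Dnm2* with 8.41 ± 0.617 CPM per kb, and *Dnm1* was at 1.70 ± 0.177 CPM per kb in the same libraries. *Amph* (0.421 ± 0.142 CPM per kb) and *Dnm3* (0.200 ± 0.0128 CPM per kb) were lowest. Thus *Bin1*, with all its splice forms counted together, exceeded *Amph*, per length, by a mean of 355 ± 160 times within a WT library at P35. Neighbors in this order overlapped for *Speg* and *Dnm2* in both genotypes at P1, for *Speg* and *Dnm1* in KO at P1, and for *Amph* and *Dnm3* in KO at P14 and P21. With the length of the longest transcript in place of all exons, *Dnm3*, whose annotated exons sum to 24452 bases against 7523 in its longest transcript, stood above *Amph* in all 8 groups. That length also put *Dnm2* (15.3 ± 0.771 CPM per kb) above *Speg* (12.6 ± 1.17 CPM per kb) in WT at P1. With all exons, *Speg* (10.7 CPM per kb) stood above *Dnm2* (10.1 CPM per kb) there.

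**Figure D1:**
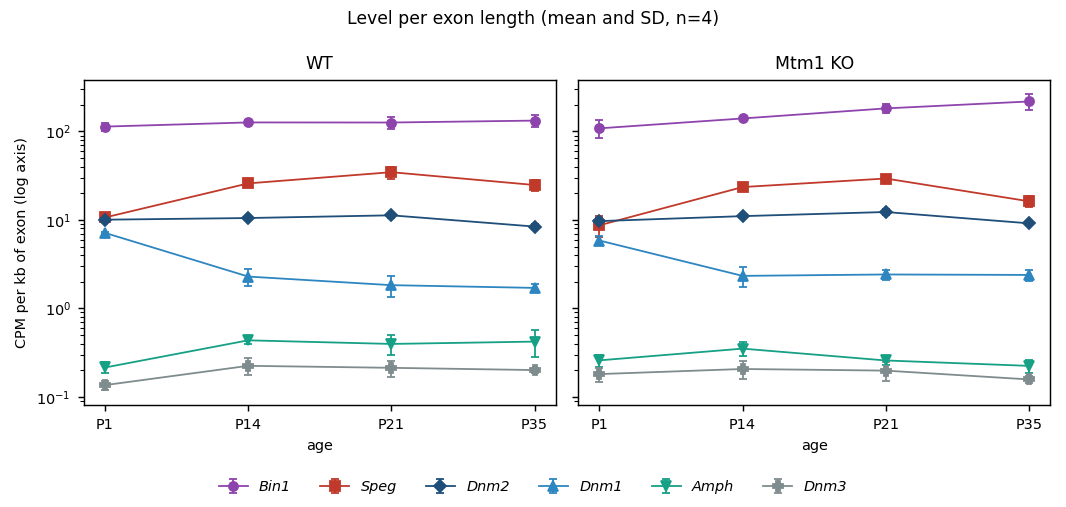
Mean level of each gene in CPM per kb of exon (log axis, bars SD, n=4) at P1, P14, P21 and P35 in WT (left) and *Mtm1* KO (right) TA muscle. *Bin1* lies above the other 5 genes at every age, and *Speg* and *Dnm2* sit close together at P1.

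Among the dynamins, *Dnm2* made up most of the RNA, and its share grew as *Dnm1* fell after birth. Per exon length, *Dnm2* took 58.0 ± 1.41% of the summed dynamin level in WT at P1, and the 4 libraries lay between 56.6% and 59.5%. At P14 its share was 80.8 ± 2.39%, with libraries between 78.5% and 84.2%, and at P35 it was 81.5 ± 2.43%. *Dnm1* took 41.2% at P1, with libraries between 39.6% and 42.5%, and 17.4 ± 2.89% at P14. *Dnm3* took at most 2.54% in any library, and at most 5.45% with the length of the longest transcript. In KO the *Dnm2* share at P35 was 78.2 ± 3.16%, and its libraries, from 74.6% to 81.4%, overlapped those of WT, from 78.3% to 83.7%.

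The first comparison followed normal maturation in WT muscle, with a gene called where the adjusted *P*-value was under 0.01 and the difference over 1.5-fold in either direction. From P1 to P14, 4 of the 6 genes were called, against 53.5% of all genes tested. *Speg*, *Amph* and *Dnm3* rose and *Dnm1* fell, and DESeq2 called the same 4. *Speg* in WT was at 131, 154, 132 and 126 CPM at P1 and at 337, 326, 347 and 309 CPM at P14. Every P14 library was above every P1 library, a difference of 1.28 on the log2 scale (SE 0.147, adjusted *P*=9.11e-09, edgeR). *Dnm1* was at 38.0, 35.6, 38.6 and 37.6 CPM at P1 and at 14.3, 12.9, 12.6 and 8.21 CPM at P14, again without overlap. Its log2 fold change was -1.64 (SE 0.177, adjusted *P*=3.05e-09, edgeR). *Amph* rose from 0.970 ± 0.135 to 1.97 ± 0.189 CPM (log2 fold change 1.02, SE 0.202) and *Dnm3* from 3.31 ± 0.409 to 5.47 ± 1.21 CPM (log2 fold change 0.72, SE 0.177). The *Dnm3* value rested in part on the WT library of replicate 4 at P14, at 7.29 CPM, without which the log2 fold change was 0.56 and no longer passed.

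*Dnm2* and *Bin1* were not called at this step. *Dnm2* was at 51.4, 54.3, 57.2 and 51.7 CPM in WT at P1 and at 56.7, 57.6, 56.9 and 52.7 CPM at P14, and the groups overlapped (log2 fold change 0.06, 95% interval -0.08 to 0.20). *Bin1* was at 421, 537, 447 and 466 CPM at P1 and at 512, 502, 498 and 573 CPM at P14, also with overlap (log2 fold change 0.16, interval -0.15 to 0.46). This step depends on the scaling. When libraries were scaled by their totals, the all-gene median of the log2 fold change moved from -0.09 to -0.87, and a different set of genes was called. *Dnm1* stayed called lower at -2.41, and *Dnm2* at -0.71 (adjusted *P*=3.83e-09, edgeR) and *Bin1* at -0.62 (adjusted *P*=6e-05, edgeR) were called lower with their signs turned. *Speg* at 0.50, *Amph* at 0.24 and *Dnm3* at -0.070 lost their calls, and *Dnm3* changed sign. Markers of other cells moved as well between these ages. All 5 keratinocyte, all 5 macrophage and 5 of 6 fibroblast markers were called lower and all 8 myofiber markers higher at P14. Of 7 tested neuron markers 4 were called lower and 0 higher (median log2 fold change -2.78). The 8 neuron markers summed to 6.54 to 7.94 CPM in WT at P1 and 4.73 to 5.70 CPM at P14. Satellite cell (3 of 5), adipocyte (3 of 4) and erythroid (2 of 3) markers were also called lower. Endothelial (3 of 5) and smooth muscle (2 of 5) markers were called higher, and Schwann cell markers both ways (2 higher, 1 lower). The part of these markers in the course of the 6 genes was not tested.

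Later steps of WT muscle gave no calls among the 6 genes in edgeR. From P14 to P21 the count was 0, against 6.83% of all genes tested, with 1 gene at an unadjusted *P* under 0.05 and 0 called by DESeq2. That gene was *Speg*, at 442 ± 67.4 CPM at P21 (log2 fold change 0.42, SE 0.145, adjusted *P*=0.0338, edgeR). At this step 6735 of 18583 genes had an unadjusted *P* under 0.05 (edgeR). From P21 to P35 the count was again 0, against 4.004% of all genes tested, with 2 genes at an unadjusted *P* under 0.05 and 0 called by DESeq2. Over all genes, 5878 of 18583 had an unadjusted *P* under 0.05 (edgeR). *Dnm2* was at 66.8, 56.9, 58.4 and 58.2 CPM at P21 and at 40.0, 46.1, 47.5 and 45.8 CPM at P35. All P35 libraries were below all P21 libraries, and the adjusted *P*-value of 1.83e-04 (edgeR) passed while the log2 fold change of -0.42 (SE 0.0700) was under the limit. *Speg* gave -0.48 at this step (SE 0.145, adjusted *P*=0.0207, edgeR). The same step in *Mtm1* KO gave a log2 fold change of -0.43 for *Dnm2* (95% interval -0.57 to -0.28) and of -0.86 for *Speg* (interval -1.15 to -0.56).

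**Figure D2:**
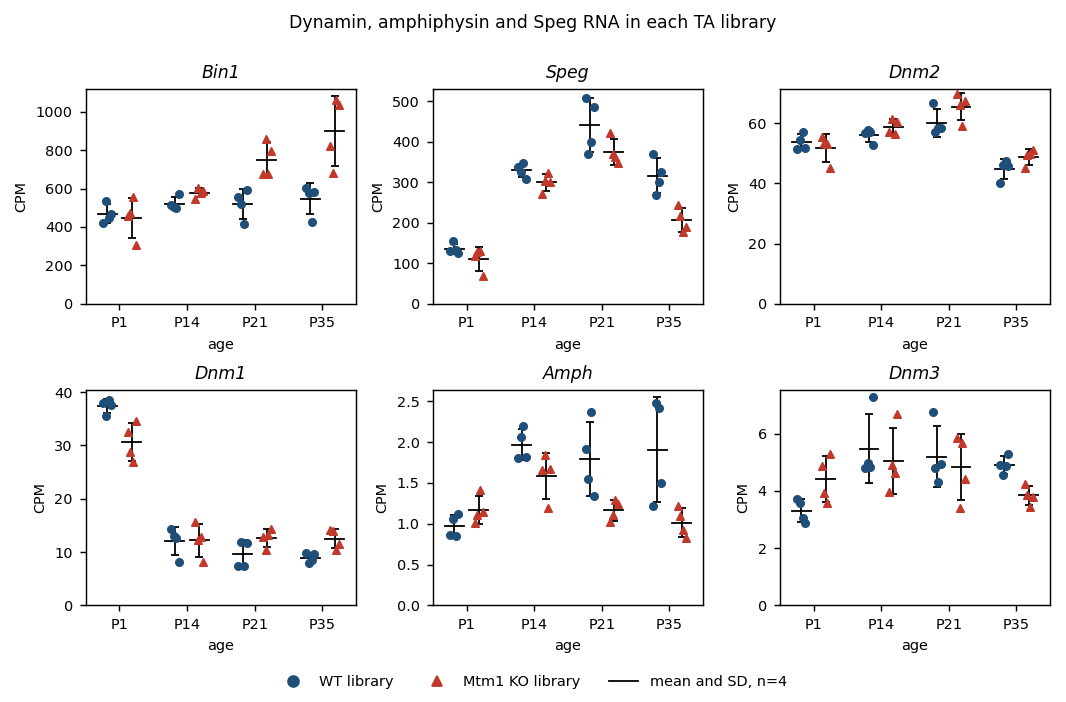
Expression in CPM of *Bin1*, *Speg*, *Dnm2*, *Dnm1*, *Amph* and *Dnm3* in each of the 32 libraries, with circles for WT, triangles for *Mtm1* KO and lines for the mean and SD of n=4, on axes that start at 0. At P35 all KO libraries are above all WT libraries for *Bin1* and *Dnm1* and below them for *Speg* and *Dnm3*.

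At P1 the comparison of *Mtm1* KO with WT asked whether these genes differed before weakness sets in. None of the 6 was called, against 0.0442% of all genes tested, with 2 at an unadjusted *P* under 0.05 and 0 called by DESeq2. Over all genes, 1978 of 18100 had an unadjusted *P* under 0.05 (edgeR). *Dnm1* was at 32.5, 28.7, 26.9 and 34.7 CPM in KO, below the 35.6 to 38.6 CPM of WT in every library (log2 fold change -0.27, SE 0.0857, adjusted *P*=0.297, edgeR). *Dnm3* was at 4.41 ± 0.806 CPM in KO and 3.31 ± 0.409 CPM in WT (log2 fold change 0.43, SE 0.152, adjusted *P*=0.347, edgeR). Groups did not overlap for 1 of the 6 genes, *Dnm1*, against 8.62% of all genes. Without the KO library of replicate 4, *Dnm1* was at -0.34 and *Dnm3* at 0.33, while the small values of *Dnm2* and *Bin1* changed sign, from -0.040 to 0.021 and from -0.051 to 0.092. *Speg* moved from -0.28 (SE 0.187) to -0.10 without it, and *Amph* from 0.28 (SE 0.164) to 0.29. In the KO library of replicate 4, *Bin1* was at 307 CPM and *Speg* at 67.8 CPM, the lowest of the 8 libraries for both genes.

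P14 falls in the phase before symptoms. Again 0 of the 6 genes were called, against 0.0318% of all genes, and 0 had an unadjusted *P* under 0.05 or were called by DESeq2. Of 15728 genes tested, 1072 had an unadjusted *P* under 0.05 (edgeR). The replicate numbers were taken to pair the samples at this age, a pairing inferred from these same data. With the number as a block, 0 of the 6 were still called, against 0.623% of all genes. An unadjusted *P* under 0.05 (edgeR) was then found for 2 members, and for 3423 of 15728 genes tested. The 2 members were *Bin1*, higher in KO in 4 of 4 pairs (0.15, adjusted *P*=0.141, edgeR), and *Speg*, lower in 4 of 4 pairs (-0.14, adjusted *P*=0.148, edgeR). *Amph* and *Dnm3* were also lower in 4 of 4 pairs, with an adjusted *P* of 0.26 and 0.408 (edgeR). The share of all genes with the same sign in 4 of 4 pairs was not counted. As unpaired groups, libraries overlapped for all 6, against 4.84% of all genes without overlap. *Dnm2* was at 57.2, 61.2, 56.3 and 60.5 CPM in KO, within and just above the WT range of 52.7 to 57.6 CPM, and its log2 fold change was 0.07 with a 95% interval of -0.05 to 0.19. For *Bin1* the value was 0.15 (interval -0.02 to 0.31) and for *Speg* -0.14 (interval -0.30 to 0.02). *Amph* had -0.31, with the interval from -0.67 to 0.05.

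At P21, the age of first symptoms, none of the 6 was called, against 4.67% of all genes tested, with 2 at an unadjusted *P* under 0.05 and 0 called by DESeq2. The 2 were the amphiphysins, which lay on opposite sides of WT. Over all genes, 5329 of 15179 had an unadjusted *P* under 0.05 (edgeR). *Bin1* was at 555, 521, 413 and 591 CPM in WT and at 676, 859, 674 and 795 CPM in KO. KO libraries were all higher than WT, by 0.54 on the log2 scale (SE 0.122, adjusted *P*=0.0134, edgeR). DESeq2 put *Bin1* at 0.52 (adjusted *P*=7.26e-04, DESeq2), where only the fold limit was not passed. *Amph* was at 1.92, 1.55, 2.37 and 1.34 CPM in WT and at 1.02, 1.10, 1.29 and 1.25 CPM in KO, every KO library below WT (log2 fold change -0.61, SE 0.204, adjusted *P*=0.0618, edgeR). These 2 of 6 genes had groups without overlap, against 24.7% of all genes. *Dnm2* was at 69.5, 65.9, 59.2 and 67.4 CPM in KO against 56.9 to 66.8 CPM in WT (log2 fold change 0.14, 95% interval -0.02 to 0.29). Scaling by library totals, which moved the median of all genes from 0.01 to 0.20, put *Bin1* at 0.74 (adjusted *P*=0.0012, edgeR), past both limits, moved *Dnm2* to 0.33 (adjusted *P*=0.00348, edgeR), under the fold limit, and turned the sign of *Dnm3* from -0.093 to 0.11. Markers of other cells also differed at P21. Macrophage markers (5 of 5 above 0, 2 called) summed to 29.0 to 34.3 CPM in WT and 42.9 to 55.0 CPM in KO, and endothelial markers (0 of 5 above 0, 0 called) to 550.2 to 836 and 436 to 516 CPM. Myofiber markers (0 of 8 above 0, 0 called) summed to 149870 to 200480 and 135320 to 153670 CPM, and 1 of 5 satellite cell markers was called lower. Smooth muscle and pericyte markers (0 of 5 above 0, 0 called) summed to 1101 to 1389 CPM in WT and 868 to 969 CPM in KO. Fibroblast markers (6 of 6 above 0, 0 called) summed to 3454 to 5913 and 4094 to 7219 CPM. The part of all these markers in the values of the amphiphysins was not tested.

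At P35, near the end of life of *Mtm1* KO mice, *Bin1* rose and *Speg* fell, so that 2 of 6 genes were called against 16.01% of all genes tested. *Bin1* was at 601, 578, 425 and 584 CPM in WT and at 820, 680, 1062 and 1036 CPM in KO. Genotypes did not overlap, since the lowest KO library exceeded the highest WT library, and the difference on the log2 scale was 0.74 (SE 0.164, adjusted *P*=0.00598, edgeR), a 1.67-fold difference. *Speg* was at 371, 269, 301 and 324 CPM in WT and at 244, 218, 177 and 189 CPM in KO. The highest KO library lay under the lowest WT library, and the fitted log2 value of -0.59 (SE 0.131, adjusted *P*=0.00631, edgeR) passed the fold limit only narrowly. Both calls are close to the threshold. Leaving out single libraries gave 0 to 2 calls, with log2 fold changes of 0.63 to 0.85 for *Bin1* (adjusted *P* between 0.00244 and 0.0214, edgeR) and of -0.68 to -0.50 for *Speg* (adjusted *P* between 0.00404 and 0.0182, edgeR). The *Bin1* call was kept only without KO replicate 2 and lost without any other single library, and the *Speg* call was lost without WT replicate 1, 3 or 4 or KO replicate 3 or 4.

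The other 4 genes were not called at P35 in the edgeR fit of the 8 libraries of this age. *Dnm1* was at 9.86, 7.89, 8.45 and 9.57 CPM in WT and at 14.2, 14.0, 10.5 and 11.5 CPM in KO, without overlap (log2 fold change 0.51, SE 0.127, adjusted *P*=0.0107, edgeR). *Dnm3* was at 4.90 ± 0.313 CPM in WT and 3.84 ± 0.333 CPM in KO, also without overlap (log2 fold change -0.33, SE 0.115, adjusted *P*=0.0460, edgeR). Groups were thus apart for 4 of the 6 genes, against 39.6% of all genes. *Amph* was at 1.22, 2.48, 2.42 and 1.499 CPM in WT and at 1.22, 1.09, 0.919 and 0.820 CPM in KO, overlapping in the lowest WT library (log2 fold change -0.88, SE 0.265, adjusted *P*=0.0242, edgeR). DESeq2 called *Amph* too, at -0.91 (adjusted *P*=0.00455), as did edgeR in the fit of all 32 libraries, at -0.91 (adjusted *P*=7.61e-04).

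*Dnm2*, whose protein was measured at several ages in the same study, showed the smallest difference of the 6 genes at P35. It was at 40.0, 46.1, 47.5 and 45.8 CPM in WT and at 44.9, 49.3, 49.7 and 51.1 CPM in KO, and the groups overlapped. Its log2 fold change was 0.15 (95% interval -0.02 to 0.31, adjusted *P*=0.145, edgeR), so that on this scale a doubling lies outside the interval at each of the 4 ages. Scaling decided how *Dnm2* and *Speg* were read at this age. With library totals, which moved the all-gene median from 0.04 to 0.44, *Dnm2* was at 0.55 (adjusted *P*=4.67e-04, edgeR), under the fold limit, *Speg* at -0.18 and no longer called, *Dnm1* called at 0.92, *Bin1* at 1.14, *Amph* at -0.49 and *Dnm3* turned to 0.077.

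**Figure D3:**
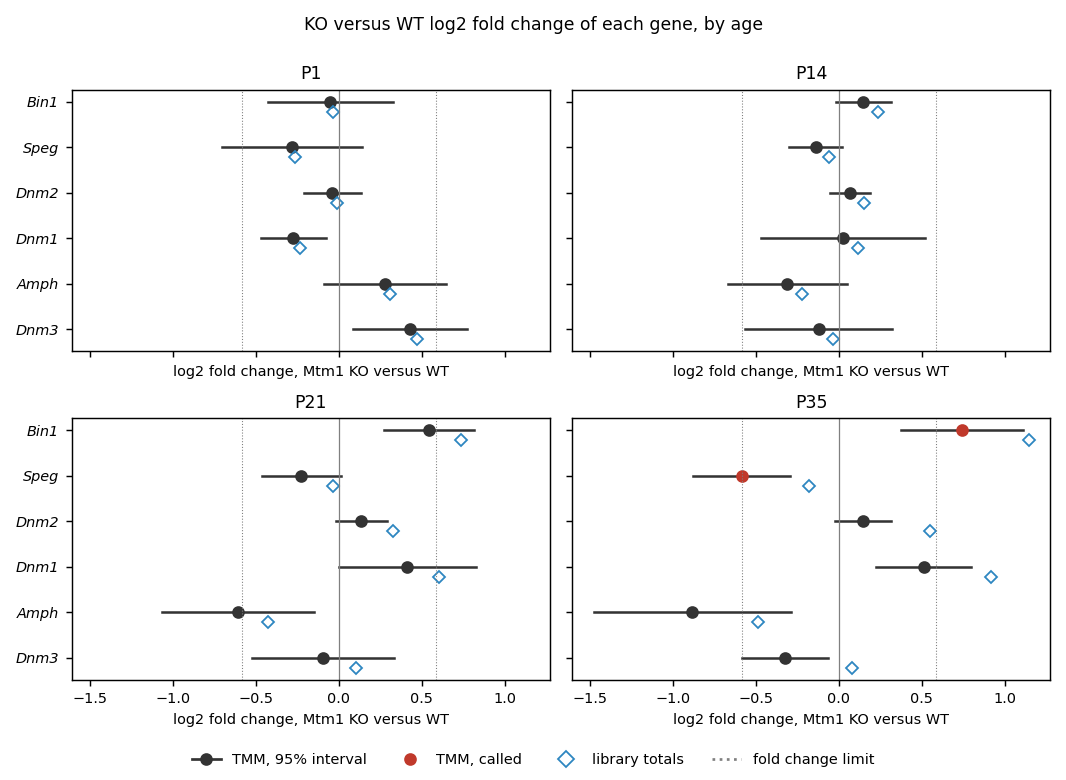
Log2 fold change of *Mtm1* KO versus WT for the 6 genes at each age, with filled circles and 95% intervals for TMM scaling (red where called), open diamonds for scaling by library totals and dotted lines at the fold limit. *Bin1* and *Speg* are called at P35 only, the *Dnm2* interval spans 0 at all 4 ages, and the diamonds lie to the right of the circles at P35.

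Whether the difference between genotypes changed from one age to the next was tested with interaction terms in 1 fit of all 32 libraries, called at an adjusted *P* under 0.01. From P1 to P14, 0 of the 6 genes passed (against 0.0161% of all genes), with 1 at an unadjusted *P* under 0.05 and 0 by DESeq2. From P14 to P21, 0 of the 6 passed in edgeR (against 0.425% of all genes) and 0 in DESeq2, with 0 at an unadjusted *P* under 0.05. From P21 to P35 these counts were 0, 0 and 0, against 0.463% of all genes. The call of *Speg* at P35 and its absence at P21 therefore did not amount to a tested difference between the ages (log2 difference -0.37, 95% interval -0.79 to 0.04), and the same holds for *Bin1* (0.19, interval -0.25 to 0.62). Over all 18583 genes, 1200, 2398 and 3241 had an unadjusted *P* under 0.05 for the interactions, in order of age (edgeR).

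Ratios within a library do not depend on its scaling. *Bin1* per *Speg*, each per kb of exon, was 10.7 ± 0.645 in WT and 12.7 ± 1.17 in KO at P1 (12.2 ± 0.899, n=3, without KO replicate 4) and then lower at P14, with 4.91 ± 0.569 in WT and 5.98 ± 0.321 in KO. At P21 the WT libraries were at 3.37, 4.36, 3.20 and 3.76 and the KO libraries at 4.97, 7.20, 5.77 and 7.09. At P35 the ratio was 5.01, 6.67, 4.37 and 5.57 in WT and 10.4, 9.67, 18.6 and 16.9 in KO. Genotypes were apart at P21 and P35 and overlapped at P1 and P14. The ratio does not tell which of its genes differed. At P35 its separation follows from the separation of *Bin1* and *Speg* in opposite directions and adds no support to either. *Bin1* per *Dnm2* was 15.9 ± 3.24 in WT and 23.9 ± 4.33 in KO at P35, where 1 KO library, at 17.9, fell below the highest WT library, at 19.4.

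**Figure D4:**
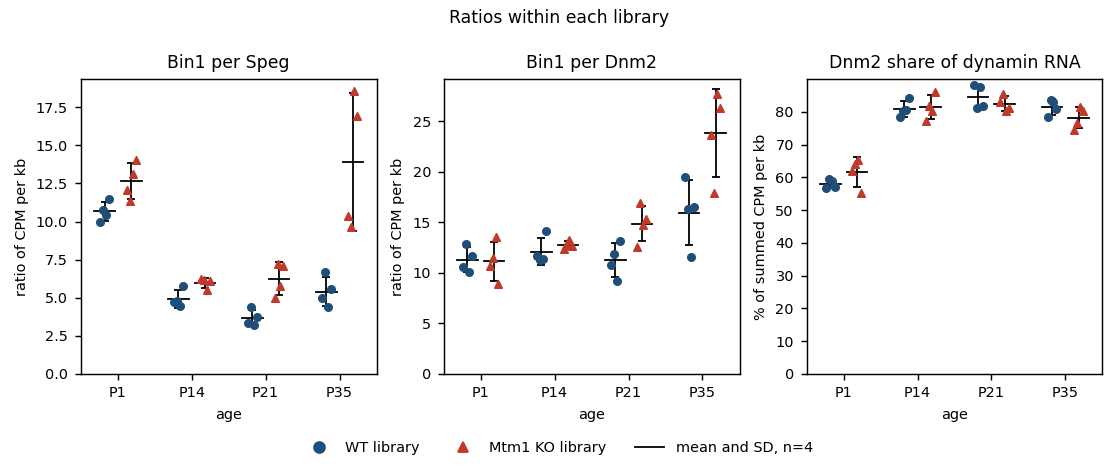
Ratio of *Bin1* to *Speg* and of *Bin1* to *Dnm2* (CPM per kb) and share of *Dnm2* in the summed dynamin level (%) in each library, with circles for WT, triangles for *Mtm1* KO and lines for the mean and SD of n=4. The *Bin1* per *Speg* ratio of the KO libraries at P35 lies between 9.67 and 18.6, above the highest WT library of that age at 6.67.

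Markers of cell types also moved at P35. All 8 myofiber markers had a log2 fold change under 0 and 1 was called lower, and their summed level was 123400 to 183990 CPM in WT and 77152 to 111430 CPM in KO. Schwann cell markers (8 of 8 above 0, 1 called) summed to 59.5 to 455 CPM in WT and 238 to 982 CPM in KO, macrophage markers (5 of 5 above 0, 3 called) to 28.8 to 35.8 and 41.6 to 61.8 CPM, and adipocyte markers (4 of 4 above 0, 3 called) to 1.98 to 8.35 and 12.7 to 48.3 CPM. Endothelial markers (0 of 5 above 0, 2 called lower) summed to 318 to 607 CPM in WT and 282 to 357 CPM in KO. Neuron markers stayed low, with a sum of at most 6.34 CPM in any P35 library, a mean of 0.0433 CPM of *Snap25* in KO and 0 of 2 tested markers called. Satellite cell markers had 1 of 5 called lower. Smooth muscle and pericyte markers (3 of 5 above 0, 1 called lower) summed to 1017 to 1347 CPM in WT and 826 to 988 CPM in KO. Fibroblast markers (5 of 6 above 0, 0 called) summed to 3182 to 3986 and 3263 to 5041.5 CPM. The part of these shifts in the levels of *Dnm1*, *Bin1*, *Speg* and the other members was not tested.

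*Dnm3os*, an antisense transcript in an intron of *Dnm3*, which is known as the precursor transcript of miR-199a and miR-214, was at 38.1, 35.0, 40.5 and 32.3 CPM in WT at P1, where *Dnm3* was at 3.73, 3.58, 3.07 and 2.87 CPM. It fell to 2.87 ± 0.387 CPM at P14 (log2 fold change -3.66, SE 0.248, adjusted *P*=2.64e-13, edgeR), at the step at which *Dnm3* rose with TMM scaling, and to 0.984 ± 0.134 CPM at P21. The *Dnm3* log2 fold change from P1 to P14 was -0.070 with library totals. It was 0.56 without the WT library of replicate 4 at P14, and neither value was called. In KO *Dnm3os* was at 31.5 to 41.7 CPM at P1 in 3 libraries and at 74.3 CPM in replicate 4. At P35 it was at 1.29, 1.87, 1.31 and 1.78 CPM in WT and at 3.02, 4.68, 2.19 and 2.62 CPM in KO, every KO library above WT (log2 fold change 1.03, SE 0.258, adjusted *P*=0.0110, edgeR). *Dnm3* and *Dnm3os* share no exon bases, and the sources used here do not say if the counting was strand-aware.

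**Figure D5:**
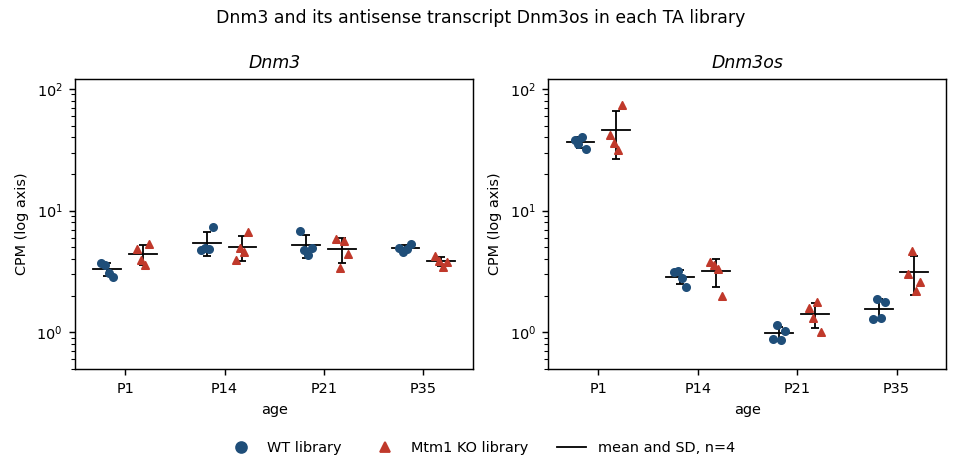
CPM (log axis) of *Dnm3* (left) and of *Dnm3os* (right), which lies in an intron of *Dnm3* on the opposite strand, in each library at P1, P14, P21 and P35, with circles for WT, triangles for *Mtm1* KO and lines for the mean and SD of n=4. *Dnm3os* is above 30 CPM in every P1 library and under 5 CPM in every later one, while *Dnm3* stays between 2.87 and 7.29 CPM.

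Other overlaps were small. *Bin1* (ENSMUSG00000024381) lies on the plus strand of chromosome 18 from 32377230 to 32435737. *Tmed1* shares 207 exon bases with the 3′ end of *Dnm2* on the opposite strand and was at 33.1 ± 1.36 CPM in WT and 29.3 ± 0.858 CPM in KO at P35 (not called). The noncoding gene *A830052D11Rik* shares 256 exon bases with the 5′ end of *Bin1* on the opposite strand. It was at 3.31, 2.95, 2.54 and 2.42 CPM in WT and at 4.32, 3.39, 6.03 and 5.54 CPM in KO at P35, and was called higher (log2 fold change 0.80, SE 0.197, adjusted *P*=0.00994, edgeR) at a level far under that of *Bin1*. *Ciz1* overlaps the *Dnm1* locus without shared exon bases and gave a log2 fold change of 0.10 at P35 (not called).

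Related genes were read from 5 lists of 85 entries, described by counts and not tested as sets. Of 11 tested CNM and triad myopathy genes, 3 were called at P35, 1 higher and 2 lower, against 16.01% of all genes, with a median log2 fold change of -0.42 against 0.04 for all genes. One of them was the deleted gene *Mtm1*, and the others were *Cav3* (caveolin 3, a membrane scaffold of muscle) at 68.8 ± 2.39 CPM in WT and 116 ± 8.80 CPM in KO, and *Neb* (nebulin, which lines the thin filament), at 5741 ± 932 and 3207 ± 431 CPM. At P14 and P21, *Mtm1* itself was the single call of the list.

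Of 13 other dynamin superfamily and EHD ATPases, 4 were called lower and 0 higher at P35, against 16.01% of all genes called in either direction, with a median of -0.32. The most significant were the mitochondrial members. *Opa1*, which fuses the inner mitochondrial membrane, was at 220 ± 17.0 CPM in WT and 121 ± 4.73 CPM in KO (log2 fold change -0.84, SE 0.0760). *Mfn1* and *Mfn2*, which fuse the outer membrane, had -0.89 (SE 0.0833) and -0.64 (SE 0.0938). None of the list was called at P1, P14 or P21.

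The 26 other BAR domain proteins and dynamin partners had 2 called higher and 1 lower of 25 tested at P35, against 16.01% of all genes, with a median of -0.01. The higher genes were *Cttn* (cortactin, an actin regulator that binds dynamin), from 39.0 ± 2.49 to 67.7 ± 4.998 CPM, and *Pacsin3* (an F-BAR protein of muscle), from 221 ± 20.6 to 347 ± 35.9 CPM. *Itsn1* (an endocytic scaffold) was lower, at 105 ± 8.89 and 61.2 ± 0.889 CPM. None of the 20 clathrin coat and uncoating genes was called at any age, with a median of 0.02 at P35. These last 2 lists sat near the median of all genes at P35, which was 0.04.

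Of the 14 relatives and partners of SPEG, 6 were called at P35, 3 higher and 3 lower, against 16.01% of all genes, and the median was -0.45. The 3 with the smallest adjusted *P*-values were all higher. They were *Atp2a2* (SERCA2, the calcium pump of slow muscle and heart), at 93.1 ± 9.57 CPM in WT and 346 ± 149 CPM in KO, *Mylk3* (cardiac myosin light chain kinase), at 0.291 ± 0.162 and 1.36 ± 0.203 CPM, and *Des* (desmin), at 2657 ± 178 and 4488 ± 593 CPM. *Des* was also the 1 call of the list at P21, with 2506 ± 189 CPM in WT and 4362 ± 501 CPM in KO. From P1 to P14 in WT, 7 of these 14 genes were called higher and 2 lower, and of the CNM and triad genes 9 were called higher and 1 lower of 11, against 53.5% of all genes called at this step.

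The genes whose log2 CPM followed each member most closely over the 32 libraries were found among 12862 protein-coding genes, as a description across libraries that share their ages and genotypes. *Bin1* was followed by *Pacsin3* (*r*=0.931), *Ghdc* (*r*=0.925) and *Des* (*r*=0.913). *Speg* was followed by *R3hdm2* (*r*=0.978), *Trappc10* and *Sugp2* (both *r*=0.976), and *Dnm1* by *Efemp2* (*r*=0.977), *Camkk1* (*r*=0.972) and *Dse* (*r*=0.971). Likeness was lower for *Dnm2*, led by *Prep* (*r*=0.852) and then *Mybbp1a* and *Cpsf3*. It was also lower for *Amph*, led by *Kitl* (*r*=0.837) and then *Cavin2* and *Clec1a*. The same held for *Dnm3*, led by *Rsbn1* (*r*=0.803) and then *Aff1* and *Crebbp*. No member was among the 3 genes most like another member.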

How the data were processed

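The 32 TA samples were analysed from 1 gene table of expected counts. Per the labels, the authors aligned reads to GRCm38 with STAR 2.6.1 and estimated these expected counts with RSEM 1.2.22 from polyadenylated, strand-directional libraries. The study's methods name HTSeq as the counter, and the annotation and the strand setting of the counting are not given in the sources used here. The deposited values are not scaled, not pooled and in 4.262% of cases not whole. The authors' own comparisons were not used, and 0 value columns were left out.

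After rounding to whole numbers, the counts were tested with edgeR 4.0.16 in R 4.3.3 (filterByExpr, TMM, glmQLFit and glmQLFTest, two-sided, Benjamini-Hochberg over all genes tested), with DESeq2 1.42.0 as an alternative. Genotypes were contrasted at each age from its 8 libraries. Age steps and interactions came from 1 fit of 32 libraries. The fits were tested on simulated counts with known changes. Alternatives were RLE size factors, library totals, 2 other filters on low counts, other sets of libraries, other thresholds, the replicate number as a block and each library left out in turn. CPM per kb used GENCODE M21 exon lengths. Totals were at least 49321035 counts per library, and intervals cover the spread between libraries. *Amph* had few counts per library, with 56 to 98 in WT and 45 to 63 in KO at P21. At P35 it had 50 to 106 in WT and 46 to 74 in KO.

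The 6 genes and the gene lists were chosen with earlier results of these data known. Named besides the 6 were *Mtm1*, overlapping genes, up to 3 called genes per list with the smallest adjusted *P*-value at P21 and at P35, all called genes of the lists at P1 and P14, the 3 genes most like each member and the defining markers. Labels number replicates 1 to 4 in each group. At P14, WT and KO libraries with the same number deviated together from their groups in all 4 pairs (*r* from 0.299 to 0.735), so these numbers were taken to pair the samples at that age, while *r* was from -0.331 to 0.291 at the other ages. Libraries with different numbers were not compared in this way, so the pairing is inferred and not given by the labels. No 2 replicates agreed within sampling noise. Labels do not say more about the origin of replicates than their numbers, so *P*-values measure the spread between these samples. Figures used python 3.11.15, pandas 2.3.3 and matplotlib 3.10.9.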

Additional observations from a re-analysis of the deposited data

Results flagged for a closer look

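In 3 of 48 groups of 4 libraries, 1 library lay far from the other 3 for its gene, where chance alone gives about 1 in 20. *Dnm2* in WT at P21 had a highest library of 66.8 CPM, with the others between 56.9 and 58.4 CPM. *Dnm3* in WT at P14 had a highest library of 7.29 CPM, with the others between 4.78 and 4.97 CPM, and the KO library of the same replicate number, at 6.68 CPM, was also the highest of its group. *Bin1* in WT at P35 had a lowest library of 424.6 CPM, with the others between 578 and 601 CPM. Without this library the *Bin1* log2 fold change at P35 was 0.63 and not 0.74. None of the tests of the difference between ages flagged one of the 6 genes.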

How the results depend on the processing

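Of 384 values of the 6 genes recomputed under other settings, 354 kept their direction and their side of the threshold. At P35 the number of members called was 2, and it was 1 without a filter on low counts, 1 with a minimum of 10 counts and 1 in the fit with a replicate block. It was 3 in the fit of all 32 libraries, 3 with DESeq2 and 3 at an adjusted *P* under 0.05, each time with *Amph* added. *Speg* was lost under both filters and *Bin1* under the replicate block, at 0.73 (adjusted *P*=0.0181, edgeR). The block changed no other call, and at P14, where the numbers were taken to pair the samples, 0 members were called with it, while the calls over all genes went from 5 to 98. At P21 library totals gave 1 call, *Bin1*. Leaving out single libraries gave 0 to 2 calls at P35.

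Values that changed sign were mostly near 0. In KO versus WT with library totals, *Dnm3* was at 0.11 at P21 and 0.077 at P35. In WT from P1 to P14, *Dnm2* was at -0.71 with library totals, -0.10 with a minimum of 10 counts and -0.000293 with DESeq2, *Dnm3* at -0.070 with library totals, and *Bin1* at -0.62 with library totals and -0.0069 with a minimum of 10 counts. In WT from P14 to P21, *Dnm2* was at -0.074 with library totals and *Bin1* at 0.016 with RLE factors and 0.015 with DESeq2. For the KO effect from P14 to P21, *Dnm3* was at -0.0086 with RLE factors and -0.0089 with DESeq2, and *Speg* at 0.027 with library totals. For the KO effect from P21 to P35, *Dnm2* was at 0.0092 with RLE factors, 0.22 with library totals, 0.024 with a minimum of 10 counts, 0.014 with only both ages in the fit and 0.0092 with DESeq2. The cause was not tested.

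With single libraries left out, KO versus WT ranged at P1 from -0.079 to 0.021 for *Dnm2* and from -0.18 to 0.092 for *Bin1*, at P14 from -0.12 to 0.17 for *Dnm1* and from -0.29 to 0.044 for *Dnm3*, and at P21 from -0.19 to 0.039 for *Dnm3*. In WT from P14 to P21, *Dnm3* ranged from -0.23 to 0.092 and *Bin1* from -0.072 to 0.091. In WT from P21 to P35, *Dnm1* ranged from -0.21 to 0.019, *Dnm3* from -0.16 to 0.068, *Bin1* from -0.023 to 0.18 and *Amph* from -0.065 to 0.25. The KO effect ranged from -0.027 to 0.24 for *Speg* from P1 to P14, from -0.15 to 0.18 for *Dnm3* from P14 to P21, and from P21 to P35 from -0.037 to 0.19 for *Dnm1* and from -0.060 to 0.033 for *Dnm2*.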
